A study of Mus musculus with 32 samples.

Results

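The mouse Ms4a genes (membrane-spanning 4-domains, subfamily A) lie side by side on chromosome 19. They encode small proteins that cross the membrane several times and that belong to the same family as CD20, the B cell antigen encoded by Ms4a1, and the beta chain of the high-affinity IgE receptor, encoded by Ms4a2. Several members are made by microglia, the resident macrophages of the spinal cord and brain, and by other macrophages. Human MS4A4A and MS4A6A lie in a region where inherited variation is associated with the risk of Alzheimer's disease and with the amount of soluble TREM2, a fragment of a lipid-sensing receptor of microglia.

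The genes described here are Ms4a4a, Ms4a4c, Ms4a6b, Ms4a6c, Ms4a6d and Ms4a7. They were chosen by name as Ms4a genes of microglia, with earlier results of these data known. They are 6 of the 42524 genes of the deposited count table, which holds 12 other Ms4a genes. RNA came from the spinal cord of 32 mice, 4 in each of 8 groups. G93A mice carried the human SOD1 transgene with the G93A mutation (B6-Tg(SOD1-G93A)1Gur/J, on the C57BL/6J background), a model of amyotrophic lateral sclerosis in which a mutant human protein is overexpressed. WT mice were their littermates without the transgene. Mice of each genotype were untreated or received OKN-007, a nitrone compound, and were taken at a labelled time of 90 or 155 days. The dose and the sex of the sequenced mice are not stated in the labels.

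The libraries held 19701722 to 30138257 gene counts each, so that 3 counts stood for 0.0995 to 0.152 CPM (counts relative to library size, on edgeR's scale) in a single library. Neurons, astrocytes and oligodendrocytes were represented in each library, with Snap25 at 847 to 2243 CPM, Gfap at 1774 to 12902 CPM and Mbp at 8883 to 23293 CPM. Each library held Xist at 244 to 446 CPM and at most 1 count of the Y gene Kdm5d, the pattern of female mice. The libraries also differed in caudal Hox genes, which mark position along the cord. Their score, the mean log2 CPM of 9 genes, averaged 3.83 in WT and 1.59 in G93A mice among untreated mice of 155 days, where 4 of the 9 passed as lower. Traces of Alb, a liver gene, reached 139 CPM in the G93A untreated mouse of 155 days numbered 12. No pair of libraries of one group agreed within counting noise, the closest pair having a chi-square of 3.57 per gene.

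Along the chromosome (GENCODE release 21, genome build GRCm38), Ms4a7 lies at chr19:11321039-11336146 on the minus strand. It is followed by Ms4a4a at chr19:11375523-11392790, Ms4a4c at chr19:11404770-11427246, Ms4a6c at chr19:11469366-11482192 and Ms4a6b at chr19:11516512-11531256, all on the plus strand, and by Ms4a6d at chr19:11586604-11604849 on the minus strand. Ms4a4b lies between Ms4a4c and Ms4a6c, and Ms4a4d between Ms4a6b and Ms4a6d. The Ms4a6 genes are close copies of each other. Over their aligned coding bases, Ms4a6b was 85.3% identical to Ms4a6c and 81.3% to Ms4a6d, and Ms4a6c was 79.1% identical to Ms4a6d. Ms4a4a and Ms4a4c shared 68.3%, and the other pairs 57.5% to 63.8%. Reads can still be told apart for most of their length. Of the 75-base stretches of their annotated transcripts, 3.78% in Ms4a4c occurred also in another gene (Ms4a4b), 2.88% in Ms4a6c, 0.632% in Ms4a6b and 0.408% in Ms4a6d, and none in Ms4a4a or Ms4a7. Reads from such stretches of Ms4a4c and of the Ms4a6 genes are ambiguous. The length of 75 bases was set here, and the resulting error of the counts was not measured.

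The promoters below are shown because they form pairs of neighbouring copies whose levels changed to unequal extents, together with that of Ms4a7, the member with the largest change. Each sequence runs 5′ to 3′ over 300 bases, of which the last 50 follow a RefSeq gene start (GRCm38.p6). For Ms4a6b and Ms4a4c the whole window lies inside the gene span given above, downstream of the GENCODE start. Capitals mark matches to letters tied to known classes of factor, searched on both strands. GAAANNGAA is part of an interferon response element. TGANTCA is a loose form of the AP-1 element, which itself has C or G at the centre. The letters GAGGAAGT, bound by PU.1, the lineage factor of macrophages, were also searched and are in none of the windows of Ms4a genes.
Ms4a7, chr19:11336097-11336396, minus strand: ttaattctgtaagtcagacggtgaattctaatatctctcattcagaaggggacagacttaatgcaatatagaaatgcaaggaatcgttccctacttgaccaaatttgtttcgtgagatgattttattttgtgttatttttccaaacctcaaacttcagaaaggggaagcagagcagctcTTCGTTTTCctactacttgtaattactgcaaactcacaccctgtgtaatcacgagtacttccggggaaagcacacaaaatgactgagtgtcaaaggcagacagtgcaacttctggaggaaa
Ms4a6c, chr19:11469118-11469417, plus strand: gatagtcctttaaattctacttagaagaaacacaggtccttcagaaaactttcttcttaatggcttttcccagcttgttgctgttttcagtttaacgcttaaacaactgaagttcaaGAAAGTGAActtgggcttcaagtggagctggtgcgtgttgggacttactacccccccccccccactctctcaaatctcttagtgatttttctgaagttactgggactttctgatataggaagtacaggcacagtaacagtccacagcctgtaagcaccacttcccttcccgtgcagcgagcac
Ms4a6b, chr19:11518309-11518608, plus strand: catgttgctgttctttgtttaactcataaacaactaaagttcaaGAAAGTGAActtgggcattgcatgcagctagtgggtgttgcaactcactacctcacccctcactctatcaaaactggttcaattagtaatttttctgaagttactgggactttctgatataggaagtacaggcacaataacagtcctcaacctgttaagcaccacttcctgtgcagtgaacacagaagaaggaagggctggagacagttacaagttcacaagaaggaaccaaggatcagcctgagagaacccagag
Ms4a4c, chr19:11407411-11407710, plus strand: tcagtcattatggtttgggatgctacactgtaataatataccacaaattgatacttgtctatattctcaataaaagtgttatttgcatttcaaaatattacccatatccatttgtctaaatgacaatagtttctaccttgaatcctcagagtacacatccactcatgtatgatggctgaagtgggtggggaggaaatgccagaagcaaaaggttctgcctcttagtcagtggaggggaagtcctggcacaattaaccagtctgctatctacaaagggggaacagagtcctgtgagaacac
Ms4a4b, chr19:11443308-11443607, plus strand: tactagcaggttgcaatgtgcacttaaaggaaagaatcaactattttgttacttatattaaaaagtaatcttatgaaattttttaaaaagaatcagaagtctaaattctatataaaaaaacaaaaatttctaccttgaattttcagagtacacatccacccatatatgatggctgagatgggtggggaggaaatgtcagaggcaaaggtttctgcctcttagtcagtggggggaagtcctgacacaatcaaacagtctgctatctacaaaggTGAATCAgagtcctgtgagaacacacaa

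The promoters of Ms4a6c and Ms4a6b were 80.8% identical over 234 aligned columns and shared an unbroken run of 48 bases, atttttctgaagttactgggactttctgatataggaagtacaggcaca. Both held the interferon-type match GAAAGTGAA, 133 bases before the start of Ms4a6c and 206 bases before that of Ms4a6b. The promoters of Ms4a4c and Ms4a4b were 73.5% identical over 310 columns, with a longest shared run of 20 bases. The window of Ms4a7 held an interferon-type match on the strand opposite the gene, seen as TTCGTTTTC in the sequence given, 71 bases before its start. At a second RefSeq start of Ms4a7, the window held GAAAAGGAA, 148 bases before that start. It also held the loose AP-1 match TGATTCA, with T at the centre, 81 bases before that start. The promoter of Ms4a6d was not analysed here. Windows of Ms4a4a and Ms4a4c held none of the letters searched. Of 32851 RefSeq promoters of the same length, 8.56% held the interferon-type letters, 7.81% the loose AP-1 letters and 3.20% the PU.1 letters.

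The first comparison asked how these genes differ between G93A and WT spinal cord late in disease. At 155 days, each of the 6 genes was higher in untreated G93A than in untreated WT mice, and no G93A mouse overlapped a WT mouse. The change was largest for Ms4a7 and smallest for Ms4a6b. All 6 passed edgeR's quasi-likelihood test at a Benjamini-Hochberg adjusted p under 0.05, where 39.5% of the 18675 genes tested passed and 21.3% passed as higher. Groups without overlap, G93A above WT, were found for 15.6% of all genes. Ms4a7, Ms4a4a, Ms4a4c and Ms4a6c reached the filter on low counts only through G93A mice, but all 6 genes of the list were tested, and 6 of 6 passed also without the filter. The median log2 fold change of the 6 genes was 3.502, against 0.00 over all genes tested. In bulk tissue, more cells of a type and more RNA per cell cannot be told apart.

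**Figure D1:**
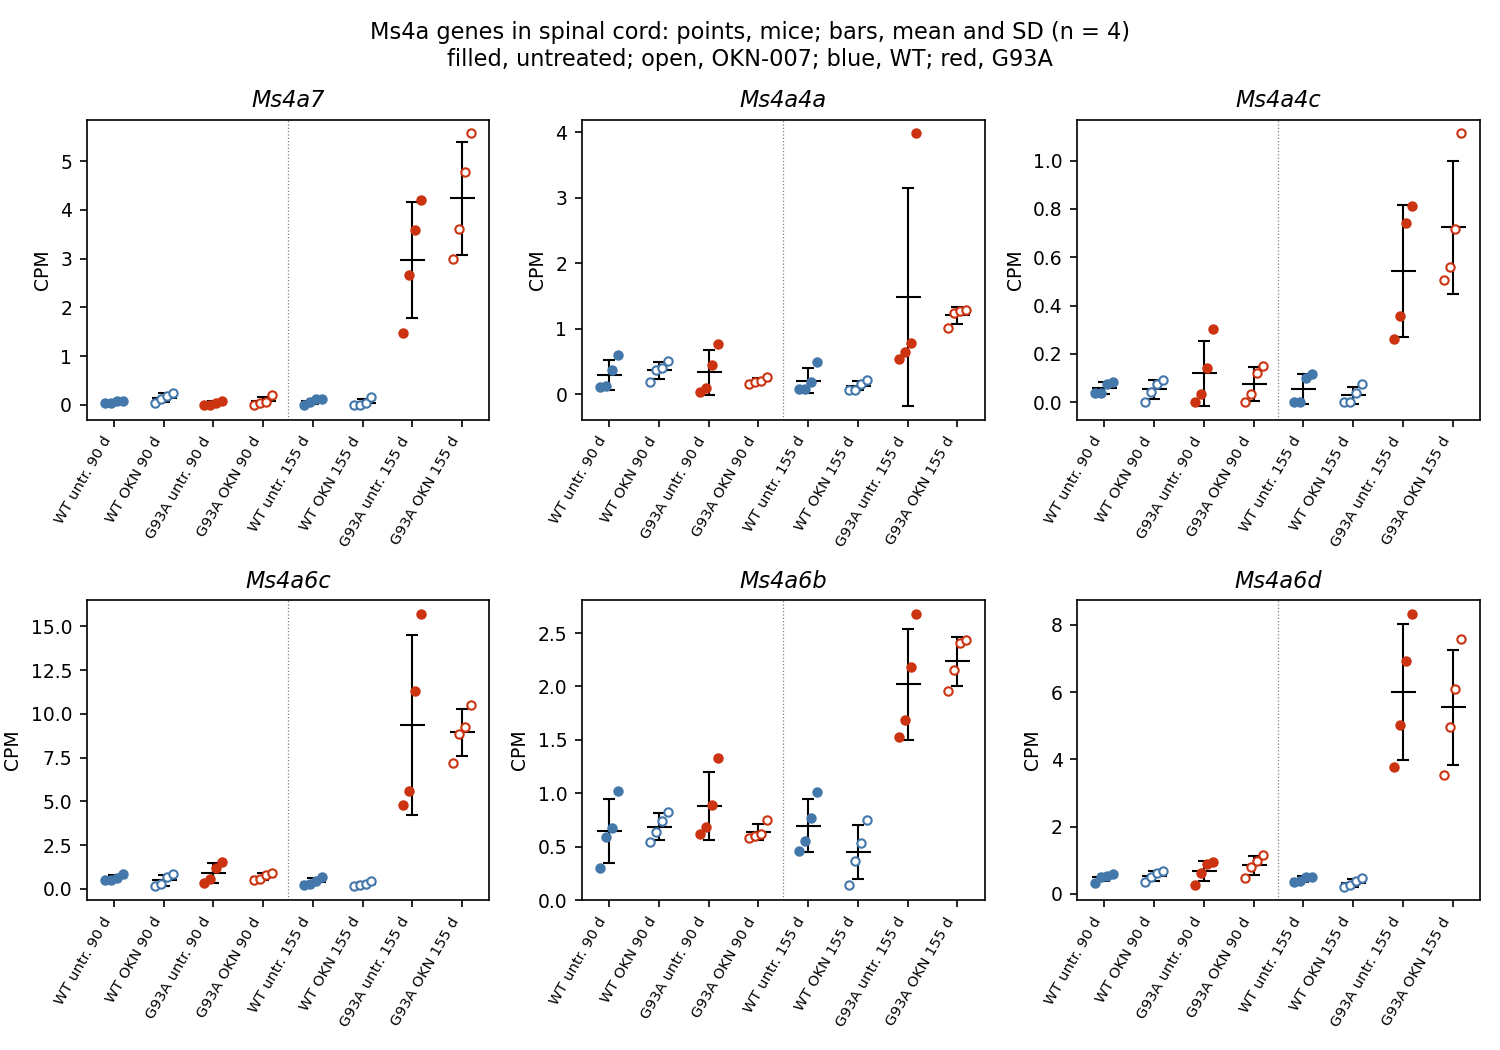
Level of each gene in CPM (vertical axis, from 0) in the 8 groups (horizontal axis), with 1 point per mouse and the mean and SD of 4 mice as bars. In each panel the 2 G93A groups of 155 days stand above the other 6 groups, and 1 G93A untreated mouse at 3.98 CPM sets the wide bar of Ms4a4a.

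Ms4a7, which in the mouse brain is known from macrophages at its borders and from macrophages that enter from the blood, was barely detected in WT cord. Untreated WT mice of 155 days had 0, 0.0654, 0.114 and 0.117 CPM, 8 reads in all. Untreated G93A mice had 1.46, 2.66, 3.58 and 4.20 CPM, from 306 reads. Every WT mouse was thus at or near the floor of 3 counts and every G93A mouse well above it. The means were 0.0740 ± 0.0547 and 2.97 ± 1.19 CPM (SD, n = 4), and the log2 fold change was 5.25 (SE 0.53, adjusted p = 2.42e-07, edgeR). With so few reads in WT mice, the ratio of summed reads, 38.2, had an exact 95% counting interval from 19.1 to 89.2.

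Ms4a6c and Ms4a6d are paralogs known from mouse macrophages. Ms4a6c was at 0.233, 0.266, 0.468 and 0.654 CPM in untreated WT mice and at 4.81, 5.61, 11.3 and 15.7 CPM in untreated G93A mice of 155 days. The lowest G93A mouse stood above the highest WT mouse, and the G93A mice differed widely among themselves. The log2 fold change was 4.52 (SE 0.39, adjusted p = 3.47e-08), from 0.405 ± 0.195 to 9.37 ± 5.13 CPM (SD, n = 4; edgeR). Ms4a6d was at 0.360, 0.380, 0.505 and 0.511 CPM in WT and at 3.77, 5.01, 6.91 and 8.33 CPM in G93A mice. Its WT mice lay close together, and its log2 fold change of 3.81 had the smallest error of the 6 (SE 0.30, adjusted p = 1.14e-08).

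Ms4a6b, the third copy of that group and also known from T cells, changed least. Its WT levels were 0.456, 0.556, 0.766 and 1.01 CPM and its G93A levels 1.53, 1.68, 2.18 and 2.68 CPM. The groups did not overlap, but the step between them was small, from 0.697 ± 0.246 to 2.02 ± 0.522 CPM (SD, n = 4). The log2 fold change was 1.58 (SE 0.32, adjusted p = 6.74e-04). Its 95% interval, 0.95 to 2.20, lay below those of Ms4a6c (3.75 to 5.29), Ms4a6d (3.21 to 4.41) and Ms4a7 (4.22 to 6.29). Thus the neighbours Ms4a6c and Ms4a6b, with the promoters given above, had intervals of change that did not overlap.

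Ms4a4a encodes a surface protein of macrophages that associates with the fungal receptor dectin-1. It was at 0.0761, 0.0852, 0.194 and 0.490 CPM in untreated WT mice of 155 days. Untreated G93A mice had 0.535, 0.651, 0.786 and 3.98 CPM. A single mouse, numbered 11, was thus far above the other 3, which stood just over the highest WT mouse. The log2 fold change was 2.75 (SE 0.63, adjusted p = 0.00184), and without mouse 11 it was 1.61 and still passed. Ms4a4c, a less studied neighbour, was at 0, 0, 0.0981 and 0.117 CPM in WT and 0.262, 0.358, 0.741 and 0.813 CPM in G93A mice. Its log2 fold change of 3.19 (SE 0.66, adjusted p = 8.48e-04) rested on 6 reads in WT and 56 in G93A mice. The counting interval of the ratio, 9.31, ran from 4.02 to 26.4.

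The G93A mice were not ordered alike for each gene. Mouse 11 had the highest level of 5 of the 6 genes, Ms4a4a, Ms4a4c, Ms4a6b, Ms4a6c and Ms4a6d, while mouse 10 had the highest level of Ms4a7. Mouse 12, the library with Alb, had the lowest level of 4, Ms4a6b, Ms4a6c, Ms4a6d and Ms4a7. All 6 genes passed also when the 3 mice with traces of liver RNA were left out, and when the caudal Hox score was added to the model. That score did not overlap between genotypes at 155 days. It was 3.40 to 4.38 in untreated WT and -0.15 to 3.28 in untreated G93A mice. In treated mice it was 4.20 to 4.46 in WT and 0.95 to 3.40 in G93A mice. The fit with the score therefore cannot separate position along the cord from genotype. Over the 8 G93A mice of 155 days, the correlation between pairs of the 6 genes ran from 0.30 (Ms4a4a with Ms4a7) to 0.91 (Ms4a6b with Ms4a6c), with a median of 0.68 over 15 pairs. The genes of a pair were measured in the same libraries, the mice came from 2 treatments, and the values are a description.

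In mice that received OKN-007, the G93A and WT groups of 155 days differed in the same direction for each of the 6 genes. Again 6 of 6 passed, where 41.5% of all genes passed and 23.3% passed as higher. No G93A mouse overlapped a WT mouse for any of them, a separation that 20.2% of all genes showed. The median log2 fold change was 4.35. Ms4a7 was at 0, 0, 0.0370 and 0.154 CPM in WT and 2.99, 3.61, 4.78 and 5.57 CPM in G93A mice, a log2 fold change of 6.44 (SE 0.55). Ms4a6c went from 0.150, 0.192, 0.259 and 0.467 CPM to 7.21, 8.82, 9.23 and 10.5 CPM, a log2 fold change of 5.10 (SE 0.42). The treated G93A mice lay closer together for Ms4a6c than the untreated ones, without a test of the spread.

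Ms4a6d was at 0.216, 0.259, 0.375 and 0.462 CPM in treated WT and 3.54, 4.96, 6.09 and 7.58 CPM in treated G93A mice of 155 days, with a log2 fold change of 4.14 (SE 0.32). For Ms4a4c the treated WT mice held only 3 reads against 81 in G93A mice, and the ratio of 25.7 had a counting interval from 8.48 to 127. Ms4a4a, without an outlying mouse here, was at 0.0740, 0.0749, 0.154 and 0.216 CPM in WT and 1.02, 1.23, 1.28 and 1.29 CPM in G93A mice. Its log2 fold change was 3.24 (SE 0.69). Ms4a6b again changed least, with 2.38 (SE 0.33), from 0.450 ± 0.257 to 2.24 ± 0.227 CPM (SD, n = 4).

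**Figure D2:**
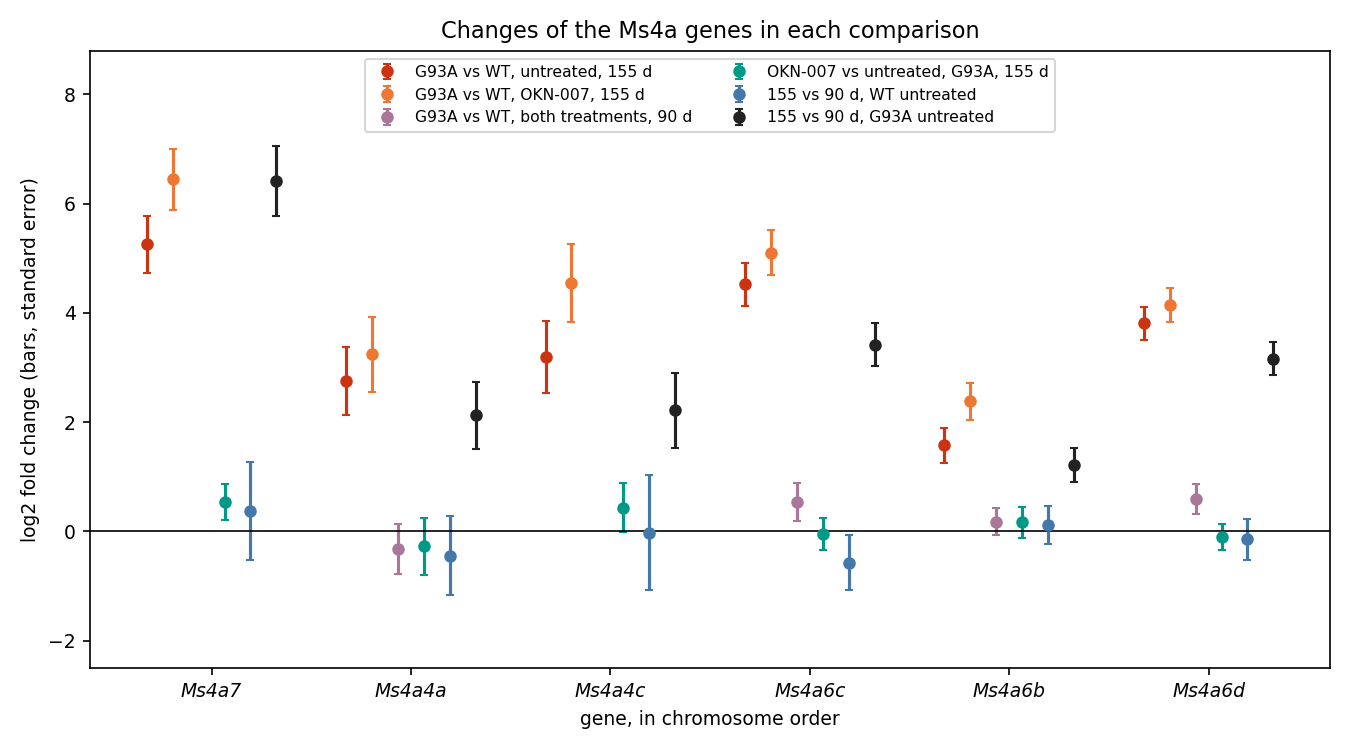
Log2 fold change (vertical axis, bars are the standard error) of each gene in 6 comparisons; Ms4a7 and Ms4a4c were not tested at 90 days. The genotype changes at 155 days run from 1.58 to 6.44, while those of OKN-007 in G93A mice lie between -0.28 and 0.53.

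Whether OKN-007 changed these genes was asked within each genotype. In G93A mice of 155 days, 0 of the 6 passed by edgeR's quasi-likelihood test or by DESeq2, and 0 had an unadjusted p under 0.05. Over all genes, 0% passed and 755 had an unadjusted p under 0.05. Levels of treated and untreated G93A mice overlapped for each gene. The log2 fold changes were 0.53 for Ms4a7 (95% interval -0.11 to 1.17), 0.44 for Ms4a4c (-0.45 to 1.32) and 0.16 for Ms4a6b (-0.40 to 0.72). They were -0.05 for Ms4a6c (-0.61 to 0.52), -0.10 for Ms4a6d (-0.56 to 0.36) and -0.28 for Ms4a4a (-1.28 to 0.73). Adjusted p was 0.9996 for each. The intervals leave room for a change of either sign, and for Ms4a6d for a fall of no more than 0.56 on the log2 scale.

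In WT mice of 155 days, 0 of the 6 genes passed for OKN-007, as did 0% of all genes (549 at an unadjusted p under 0.05). The 6 estimates were all below 0, from -0.92 (Ms4a4c, interval -3.04 to 1.1998) to -0.43 (Ms4a6d, interval -1.22 to 0.36), and rested on few reads. The genotype by treatment interaction passed for 0 of the 6 and 0% of all genes (437 at an unadjusted p under 0.05). Its estimates ran from 0.33 for Ms4a6d to 1.36 for Ms4a4c, with standard errors of 0.46 to 1.19. The smallest p of a member, 0.10 before adjustment, belonged to Ms4a6b.

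At 90 days, the question was whether these genes differ before late disease. Only 4 of the 6 genes passed the filter on low counts, since Ms4a7 held 31 reads and Ms4a4c 30 reads over all 16 mice. In untreated mice, Ms4a6d was at 0.334, 0.488, 0.531 and 0.596 CPM in WT and 0.272, 0.620, 0.887 and 0.947 CPM in G93A mice. Of its G93A mice 3 lay above and 1 below all WT mice. Over both treatments, 8 mice a side, the log2 fold change of Ms4a6d was 0.59 (SE 0.27), with an unadjusted p of 0.0447 and an adjusted p of 0.742 (edgeR). Ms4a6c had 0.54 (SE 0.35), Ms4a6b 0.18 (SE 0.24) and Ms4a4a -0.32 (SE 0.47).

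Thus 0 of 4 passed over both treatments at 90 days, where 0.0265% of 18899 genes passed and 0.0159% passed as higher. The separate comparisons gave 0 of 4 as well. Over all genes, 0% passed in untreated mice (1126 at an unadjusted p under 0.05) and 0% in treated mice (747). For OKN-007 at 90 days, 0 of 4 and 0% of all genes passed in G93A mice (1050 at an unadjusted p under 0.05), with estimates from -0.73 for Ms4a4a to 0.31 for Ms4a6d. In WT mice 0 of 4 and 0% passed (769), and for the interaction 0 of 4 and 0% (531). No member had an unadjusted p under 0.05 in these, and DESeq2 called none of them.

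Between 90 and 155 days, the 6 genes rose in untreated G93A mice and not detectably in untreated WT mice. In a fit of all 32 mice, 6 of 6 passed in G93A mice, where 33.7% of 19829 genes passed and 21.0% passed as higher. The log2 changes were 6.42 for Ms4a7 (SE 0.64), 3.41 for Ms4a6c (SE 0.39), 3.16 for Ms4a6d (SE 0.31), 2.21 for Ms4a4c (SE 0.69), 2.12 for Ms4a4a (SE 0.62) and 1.21 for Ms4a6b (SE 0.32). That of Ms4a7 rested on 3 reads at 90 days against 306 at 155 days. The ratio of these reads, 95.3, had a counting interval from 32.3 to 465. For Ms4a4a this call was lost without mouse 11 of 155 days (0.98, adjusted p = 0.214), and for Ms4a4c without the 90-day G93A mouse numbered 9 (1.79, adjusted p = 0.0523). In WT mice, 0 of 6 passed and 0 had an unadjusted p under 0.05, where 24.9% of genes passed and 15.3% as higher. Estimates there ran from -0.57 for Ms4a6c to 0.38 for Ms4a7. Age and any sequencing batch cannot be told apart, as the labels name no batch.

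The difference between the genotype changes at the ages was tested directly in untreated mice. It passed for 3 of 6 genes, where 21.2% of all genes passed and 12.9% as higher. The differences were 6.04 for Ms4a7 (SE 1.36, adjusted p = 0.00161), 3.99 for Ms4a6c (SE 0.64, adjusted p = 2.52e-05) and 3.31 for Ms4a6d (SE 0.49, adjusted p = 8.40e-06). The 90-day side of Ms4a7 rested on 3 reads in G93A and 6 reads in WT untreated mice. No mouse of 90 days reached the filter level for Ms4a7, so its size of difference is uncertain. Ms4a4a, with 2.56 (SE 0.96), had an adjusted p of 0.0536 and passed under several other settings. Ms4a6b had 1.09 (adjusted p = 0.0968) and Ms4a4c 2.24 (adjusted p = 0.226). The count rose to 5 without the 90-day WT mouse numbered 3, and to 5 without the 90-day G93A mouse numbered 11.

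Across the 8 groups, the order of levels was the same at its top for each gene: the 2 G93A groups of 155 days stood above the other 6 groups. For Ms4a6b, Ms4a6c, Ms4a6d and Ms4a7, the lowest of these 8 mice was above the highest of the 24 other mice, at 1.46 against 0.252 CPM for Ms4a7 and 4.81 against 1.54 CPM for Ms4a6c. Of 19829 genes, 7.19% showed this separation. For Ms4a6d it was 3.54 against 1.16 CPM, and for Ms4a6b 1.53 against 1.33 CPM. Of the other 24 mice, 2 reached the range of the late G93A mice for Ms4a4a and 1 for Ms4a4c. Among the 6 lower groups, means ran from 0.0332 to 0.148 CPM for Ms4a7 and from 0.267 to 0.901 CPM for Ms4a6c. Neighbours in that order differed by less than the larger SD of the pair in each of 5 pairs for 5 of the genes, and in 4 of 5 pairs for Ms4a4a. The treated WT group of 155 days had the lowest mean for each gene but Ms4a7.

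The other Ms4a genes were mostly near the floor. Of 12, only Ms4a14 and Ms4a4b passed the filter on low counts at 155 days. Ms4a14, next to Ms4a7, was at 0.0389, 0.0761, 0.0981 and 0.128 CPM in untreated WT and 0.716, 0.860, 1.06 and 1.81 CPM in untreated G93A mice. Its log2 fold change was 3.67 (SE 0.53, adjusted p = 2.20e-05), for a gene that reached the filter only through G93A mice. Ms4a4b, a gene known from T cells, was at 0.152, 0.155, 0.196 and 0.255 CPM in WT and 0.247, 0.293, 0.337 and 0.406 CPM in G93A mice, so that the groups overlapped. Its log2 fold change of 0.79 (SE 0.42, adjusted p = 0.140) did not pass in untreated mice, while 2.403 in treated mice did (SE 0.44, adjusted p = 2.30e-04). Ms4a1, the B cell gene, had means of 0.164 CPM in WT and 0.128 CPM in G93A untreated mice of 155 days.

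**Figure D3:**
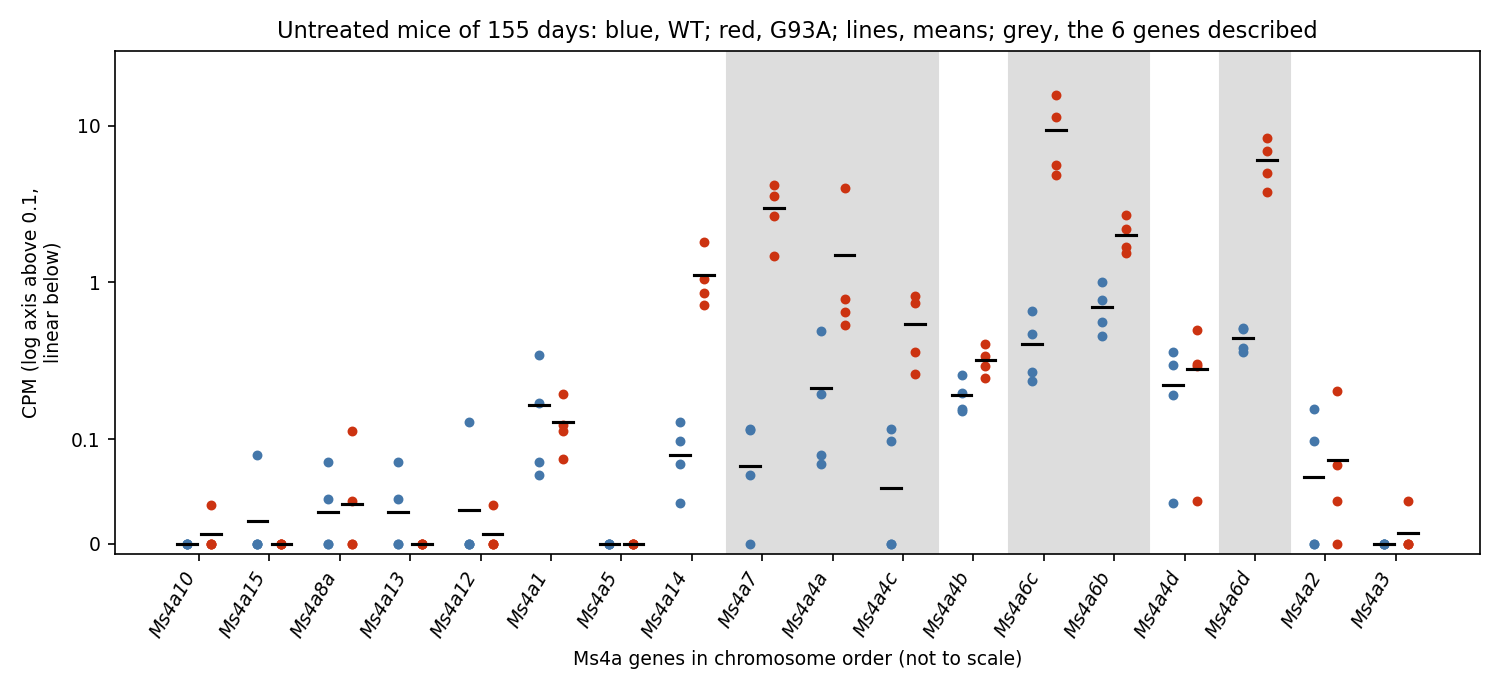
CPM of 18 Ms4a genes (vertical axis, logarithmic above 0.1 and linear below) in chromosome order in untreated mice of 155 days, with 1 point per mouse and lines for means of 4 mice. G93A levels stand apart from WT levels from Ms4a14 to Ms4a4c and at Ms4a6c, Ms4a6b and Ms4a6d, while Ms4a4b overlaps between genotypes.

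The genes around the cluster were taken by their order in the annotation, 10 tested genes on each side and AW112010 within it, since distances in the build of the files were not at hand. Of these 21, 8 passed as higher and 2 as lower in untreated G93A mice of 155 days, with a median log2 fold change of 0.11. Over all genes tested, 39.5% passed and 21.3% passed as higher. The higher ones were Mpeg1, which encodes a pore-forming protein of macrophages (3.88), Slc15a3, a lysosomal peptide transporter (3.84), Fam111a (1.93), Cd5, a T cell gene (1.82), AW112010 (1.70), Dtx4 (0.63), Ccdc86 (0.61) and Tkfc (0.48). Tmem132a and Prpf19 were lower, by 0.29 each on the log2 scale. The other 11 did not pass.

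Marker genes of microglia and macrophages were also higher in G93A mice, and which cells carried the Ms4a transcripts was not measured. In untreated mice of 155 days, where 39.5% of all genes passed and 21.3% passed as higher, 12 of 12 shared microglia and macrophage genes passed as higher. Their median log2 fold change was 3.27. Among them were Ctss, a lysosomal protease (3.08), and the complement genes C1qa (3.55) and C1qc (3.405). All 10 homeostatic microglia genes passed as higher, with a median of 1.67, among them Cx3cr1 (2.08) and Sall1 (0.45). All 14 disease-associated microglia genes passed, with a median of 3.56, among them Apoe (2.47), Ctsd (2.92) and Spp1 (2.31). The median of the 6 Ms4a genes, 3.502, lay beside those of the shared and disease-associated lists. Of the TREM2 signalling and Alzheimer risk genes, 12 of 12 passed, with a median of 2.11, among them Apoe, Grn (2.93) and Adam10 (0.28). Of the interferon-stimulated genes, 13 of 13 passed, with a median of 1.89, among them Ifit3 (1.87) and Ifit2 (0.85).

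Lists of other blood and border cells were tested in the same mice, where 39.5% of all genes passed and 21.3% passed as higher. Of 10 border macrophage genes, 8 were tested and 4 passed as higher, with a median of 0.95. Of these, Stab1 had 1.37 and Siglec1 5.12, while Mrc1 had 0.52 (adjusted p = 0.0748) and did not pass. The summed level of this list was 8.56 to 11.3 CPM in WT and 20.01 to 31.6 CPM in G93A untreated mice. Of 8 monocyte genes, 2 were tested and 0 passed by edgeR (1 at an unadjusted p under 0.05), and their sum was 0.327 to 1.22 CPM in WT and 0.524 to 5.86 CPM in G93A mice. Of 7 B cell genes, 2 were tested and 1 passed, Cd22 (5.95), while Pax5 had -0.32 (adjusted p = 0.537) and Cd79a did not reach the filter. Of 9 T and NK cell genes, 3 were tested and 2 passed, with Cd3g at 2.36, while Trbc2 had -0.10 (adjusted p = 0.905). Their sum was 0.494 to 1.28 CPM in WT and 1.87 to 2.28 CPM in G93A mice. Of the neutrophil genes 2 of 7, of the mast cell genes 1 of 5 and of the red cell genes 5 of 5 were tested, and 0 passed by edgeR (0, 1 and 3 at an unadjusted p under 0.05). Of 6 genes of other cord cells, Gfap and Slc1a2 of astrocytes passed as higher (2.401 and 0.28), and Snap25 of neurons (-0.66) and the motor neuron genes Chat (-0.41) and Mnx1 (-1.29) as lower. The part of these cells in the Ms4a levels was not tested.

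**Figure D4:**
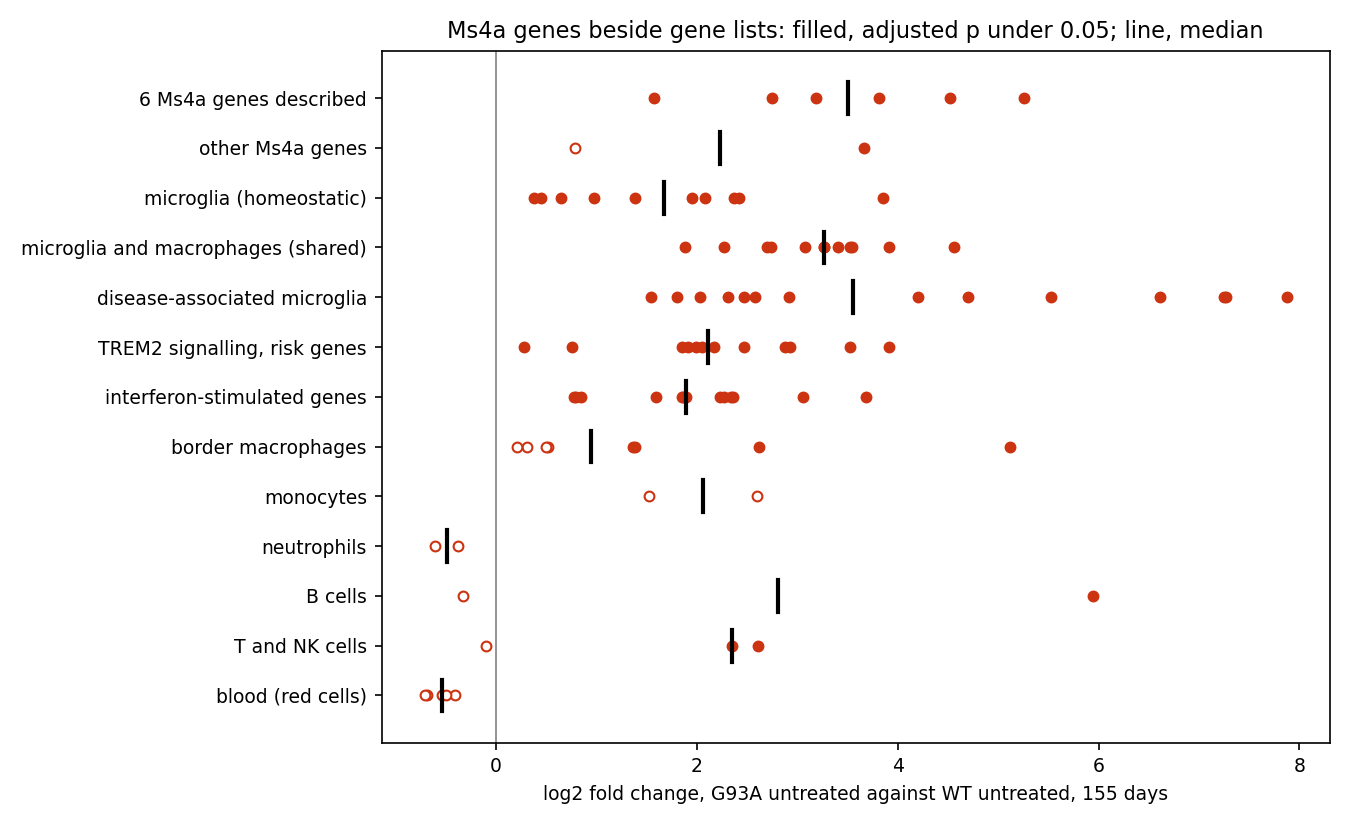
Log2 fold change of G93A against WT in untreated mice of 155 days (horizontal axis) for tested genes of each list (rows), filled where the adjusted p was under 0.05, with the list median as a line. The 6 Ms4a genes, at 1.58 to 5.25, cover the range of the shared microglia and macrophage genes, at 1.89 to 4.56.

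Set against the summed CPM of the 10 homeostatic microglia genes, 3 of the 6 genes were higher in untreated G93A mice of 155 days without overlap, as were 1.48% of all genes, while 91.1% of all genes were lower without overlap on this scale. That sum was 298 to 370 CPM in WT and 1117 to 1851 CPM in G93A untreated mice of 155 days. Per 100 CPM of it, Ms4a7 was at 0, 0.0219, 0.0315 and 0.0317 CPM in WT and 0.131, 0.193, 0.218 and 0.245 CPM in G93A mice. Ms4a6c was at 0.0630, 0.0740, 0.131 and 0.219 CPM in WT and 0.431, 0.461, 0.659 and 0.849 CPM in G93A mice. Ms4a6d was at 0.126 ± 0.0166 in WT and 0.401 ± 0.0466 in G93A mice (SD, n = 4). In treated mice of 155 days, 4 of the 6 were higher without overlap, these 3 and Ms4a4c (1.64% of all genes), and 0 of 6 were lower without overlap (93.3% of all genes).

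Ms4a6b was at 0.200 ± 0.0608 per 100 CPM of the homeostatic genes in untreated WT and 0.137 ± 0.00733 in untreated G93A mice (SD, n = 4), with overlap. In treated mice the means stood the other way, at 0.142 ± 0.0760 in WT and 0.156 ± 0.0233 in G93A mice, again with overlap. Ms4a4a (0.0655 ± 0.0675 and 0.0923 ± 0.0832) and Ms4a4c (0.0161 ± 0.0186 and 0.0351 ± 0.0106) also overlapped in untreated mice. Against the sum of the shared microglia and macrophage genes, Ms4a6b was lower in untreated G93A mice without overlap, at 0.189 ± 0.0648 in WT and 0.0671 ± 0.00680 in G93A mice, as were 95.6% of all genes. In treated mice its groups overlapped, at 0.143 ± 0.0789 and 0.0756 ± 0.0120, and 0 of 6 genes were lower without overlap (96.9% of all genes). Ms4a7 (0.0212 ± 0.0153 and 0.0953 ± 0.0189), Ms4a6c (0.112 ± 0.0608 and 0.289 ± 0.0732) and Ms4a6d (0.119 ± 0.0151 and 0.195 ± 0.00858) were higher without overlap in untreated mice (0.552% of all genes). In treated mice Ms4a7 and Ms4a6c were (0.584% of all genes), while Ms4a6d overlapped, at 0.105 ± 0.0341 and 0.183 ± 0.0449. These ratios are descriptions, and they depend on the genes taken as the base.

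**Figure D5:**
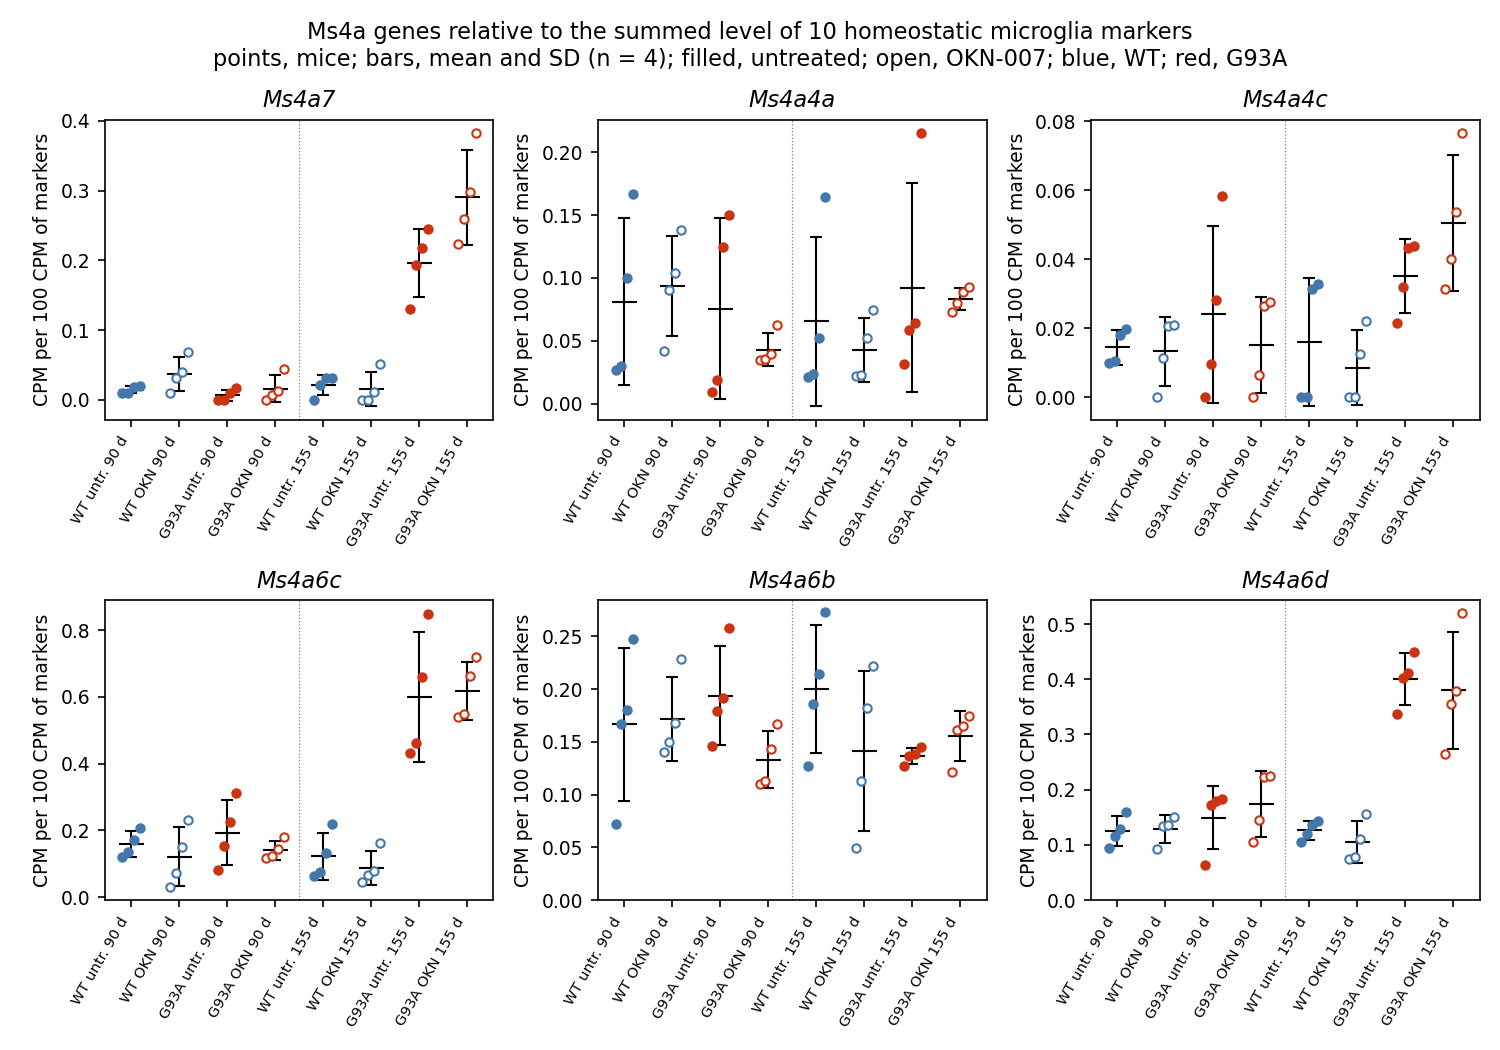
Level of each gene per 100 CPM of the summed homeostatic microglia genes (vertical axis) in the 8 groups (horizontal axis), with 1 point per mouse and mean and SD of 4 mice as bars. Ms4a7, Ms4a6c and Ms4a6d stand higher in the G93A groups of 155 days than in the others, and Ms4a6b, at 0.137 in untreated G93A and 0.200 in untreated WT mice, does not.

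For each member, the genes outside the family with the most similar levels over the 32 mice were found by Pearson's r of log2 CPM. The value is a description, and the step between the late G93A mice and the other mice enters it. For Ms4a6d they included Cd84 and C1qa (r = 0.98 each), with r of 0.86 for each over the 8 G93A mice of 155 days. For Ms4a6c they were Arpc1b, an actin regulator (0.98), Lgals9, a galectin (0.98), and Cd14, a lipopolysaccharide receptor (0.97), with 0.93, 0.94 and 0.97 over those 8 mice. For Ms4a7 they were Cd200r4, an activating receptor (0.96), Mdfic (0.96) and Ppp1r18 (0.96), with 0.88, 0.95 and 0.69 over those 8 mice and 0.077, 0.33 and 0.29 over the 24 other mice. For Ms4a6b they were Gm26740 (0.90), Gm5086 (0.90) and Trem2 (0.90), with 0.83, 0.73 and 0.74 over the 8 mice.

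For Ms4a4c they were Ctsc, a lysosomal protease, Fcrls and Slc7a7, an amino acid transporter (0.92, 0.91 and 0.91), with 0.79, 0.54 and 0.59 over the 8 mice. For Ms4a4a they were Mafk, a transcription factor (0.93), Rapgef3, an exchange factor that senses cyclic AMP (0.91), and Ankrd13a (0.90), with 0.84, 0.80 and 0.76 over the 8 mice. With the summed shared microglia and macrophage genes, over the 8 G93A mice of 155 days, Ms4a6c had r = 0.95, Ms4a6d 0.86, Ms4a6b 0.78, Ms4a7 0.77, Ms4a4c 0.62 and Ms4a4a 0.55. With the caudal Hox score the values ran from -0.13 for Ms4a7 to 0.48 for Ms4a4a over the same mice. Both measures of each correlation came from the same libraries, and these 8 mice share age and genotype.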

How the data were processed

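Spinal cord RNA of 32 mice was sequenced from stranded mRNA libraries. The authors deposited raw gene counts, not normalized. The paper's methods name STAR, HTSeq and GENCODE M10 on GRCm38, while the submitters' processing notes name STAR, featureCounts and GRCm39, and 1321 IDs of the table are not in GENCODE release 21. The build of the counts therefore stays unsettled, positions and sequences are given on GRCm38, and levels of the 6 genes are not compared with each other, while mean CPM only chose which genes of a list to name. Release 21 gave a symbol for 41203 of 42524 IDs (96.9%). The labels give the early time as 90 days and the paper as 95 days. The labels do not say whether strand was used in counting. Replicates are separate mice as labelled.

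The members and gene lists were chosen with earlier results of these data known. Group differences were tested in R 4.3.3 by edgeR 4.0.16 (with limma 3.58.1; filterByExpr, TMM, estimateDisp, glmQLFit, glmQLFTest, two-sided), fitting the 16 mice of an age as 4 groups, or all 32 as 8 groups for comparisons of ages. Adjusted p values are Benjamini-Hochberg over all genes tested. CPM used TMM factors over 32 mice. Intervals of fold changes are normal 95% intervals from the SE of the quasi-likelihood F, and counting intervals are exact binomial and cover counting error only. Correlations used log2 CPM with a prior count of 2. Promoters were aligned with Biopython 1.88. Scripts were tested on simulated data. Alternatives were DESeq2 1.42.0, the likelihood ratio test, RLE and upper-quartile factors, other filters, fits of fewer or all groups, the caudal Hox score as covariate, leaving out mice with traces of liver RNA or each mouse in turn, a replicate block, and a log2 fold change of at least 1.

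Genes named are the 6 members, other Ms4a genes tested at 155 days, the 3 genes most like each member, called neighbours of the cluster, and the 3 genes of highest mean CPM of each list. Ms4a1, Ms4a2 and Ms4a4d are named beside that rule, as are the markers of library content. Some genes that this rule names are not reported here. Neighbours within a fixed distance were replaced by the nearest tested genes in annotation order.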

Additional observations from a re-analysis of the deposited data

Results flagged for a closer look

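Ms4a4a in the untreated G93A mouse of 155 days numbered 11 was at 3.98 CPM, while the next mouse of its group was at 0.786 CPM. The gap took up more of the group's range than Dixon's limit for 4 samples allows. Of 48 groups of member levels tested in this way, 1 was beyond the limit, where chance gives 2.4. The same mouse had the highest Ms4a4c, Ms4a6b, Ms4a6c and Ms4a6d of its group, without passing the limit for them.

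The G93A change in untreated mice differed between 155 and 90 days, by the test of that difference in the fit of all 32 mice, for 3 genes. The difference was 6.04 on the log2 scale for Ms4a7, 3.99 for Ms4a6c and 3.31 for Ms4a6d. For Ms4a7 the untreated mice of 90 days held only 3 reads in G93A and 6 in WT mice.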

How the results depend on the processing

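In the 155-day comparisons of G93A with WT mice, 6 of 6 genes passed under each alternative run, other than the fit of only the 8 untreated mice, where Ms4a4c did not pass the filter and 5 of 5 passed. A minimum of 10 counts in every mouse left no member to test. For OKN-007, the interactions and 90 days, 0 members passed in any alternative. The difference of the G93A change between ages passed for 3 to 5 genes when 1 mouse was left out, 5 without the 90-day WT mouse numbered 3 and 5 without the 90-day G93A mouse numbered 11; the cause was not tested. Ms4a4a passed there with DESeq2 (2.61, adjusted p = 0.0317), the likelihood ratio test (2.59) and the Hox score (3.04). Of the members' log2 fold changes under all alternatives, 1339 kept their direction and side of the threshold or were called by neither fit, 14 gained the call, 3 lost it and 0 reversed; 35 values called by neither fit changed sign. The lost calls were Ms4a4a between ages in G93A mice in the fit of only those groups (2.09) and without mouse 11 (0.98), and Ms4a4c without mouse 9 of 90 days (1.79).

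Mice of both ages carry the same numbers, but same-numbered mice shared only a number. Their deviations correlated from -0.22 to 0.13 over 16 pairs (median -0.01), over 0.1 in 2, and 3 of 16 mice correlated best with their own number. With the replicate block, the difference of the G93A change between ages passed for 4 genes, among them Ms4a4a (2.54, adjusted p = 0.0474), and the changes between ages for 6 in G93A and 0 in WT mice.

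Counts over all genes moved by over 1.5 times as follows. A log2 fold change of at least 1 left 1717 of 7378 genes (untreated, 155 days), 1888 of 7747 (treated), 1416 of 4211 (difference between ages), 495 of 4933 (WT ages), 1602 of 6687 (G93A ages) and 2 of 5 (90 days, both treatments). The 5 genes of 90 days became 66 with DESeq2, 64 with the likelihood ratio test, 110 without the filter, 21 in the fit of all mice, 3 with upper-quartile factors and 3 to 54 with 1 mouse left out. Comparisons with 0 genes reached at most 39 without the filter and 16 with DESeq2. The change of WT mice between ages fell to 3115 genes without the 90-day WT mouse numbered 4. Depth limits Ms4a7 and Ms4a4c in WT mice, where 3 counts exceed most values. The same holds for Ms4a7 in G93A mice of 90 days.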
